A study of Rattus norvegicus with 23 samples.

Results

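The muscle miRNAs miR-143, miR-145, miR-1 and miR-206 were followed in small RNA of rat sperm. Members were the rows of the deposited miRNA table that carry the name of a 3p or 5p arm of miR-143, miR-145, miR-1, miR-133a, miR-133b or miR-206 and that were above 0 in at least 8 of the 23 rats. Of the 425 miRNA rows, 6 carried such a name and 5 were members: miR-143-3p, miR-145-5p, miR-145-3p, miR-1-3p and miR-206-3p. All 5 were above 0 in 23 of 23 rats. The sixth row, miR-143-5p, was above 0 in 5 of 23. miR-133a and miR-133b are not analysed here.

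miR-143 and miR-145 are processed from a shared precursor transcript of smooth muscle, where they are known to favour the contractile state by repressing regulators of growth and dedifferentiation such as Klf4, Klf5 and Elk1. miR-1 and miR-206 are the miRNAs of heart and skeletal muscle, are nearly identical in sequence, and are transcribed together with members of the miR-133 family. Mature sperm have no muscle programme, but the cauda epididymis, the duct segment in which sperm are stored, has a wall of smooth muscle.

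The RefSeq sequences (GRCr8) of the 5 members, of the passenger arm miR-143-5p and of the close relative miR-1b are shown because the arms differ widely in abundance and because miR-1-3p, miR-1b and miR-206-3p can be told apart by only a few bases. Each is written 5′ to 3′ with the seed, bases 2 to 8, in capitals, and all are 21 to 23 bases long. The seed is the stretch that pairs with target mRNAs.
miR-143-3p: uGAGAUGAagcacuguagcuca
miR-143-5p: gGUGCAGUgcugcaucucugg
miR-145-5p: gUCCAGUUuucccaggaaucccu
miR-145-3p: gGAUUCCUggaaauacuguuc
miR-1-3p: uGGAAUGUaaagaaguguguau
miR-1b: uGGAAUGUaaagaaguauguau
miR-206-3p: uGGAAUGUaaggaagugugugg
miR-1-3p, miR-1b and miR-206-3p share the seed GGAAUGU, which no other row of the table carries, and none of the other 4 seeds shown recurs among the table's rows. Counted from 1 at the 5′ end, miR-1-3p and miR-1b differ by 1 substitution, G17A. miR-1-3p and miR-206-3p differ by 3: A11G, A21G and U22G. How many mismatches the mapping allowed is not stated in those sources available here, so reads of miR-1-3p and miR-1b may be shared and the split between these rows is uncertain. In the GRCr8 gene order Mir145 and Mir143 are neighbours within the span of Carmn, a long noncoding RNA gene of smooth muscle, Mir1 and Mir133a1 both lie within the span of Mib1, and Mir206 neighbours Mir133b.

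The sperm came from male Long-Evans rats in 3 groups: 7 that breathed filtered air, 8 that breathed 0.4 ppm ozone and 8 that breathed 0.8 ppm ozone. Each rat had 5 exposures of 4 h, 3 in week 1 and 2 in week 2, and the chambers averaged 0.000, 0.401 and 0.798 ppm. The study's question was whether ozone, an oxidant air pollutant, alters sperm and their noncoding RNA. The design text gives 8 rats per group, the labels list 7 in air, and neither text gives the rats' age. The labels name no batch. Library names in the deposited data end in an S number that most libraries share with another, and it was not modelled. Each library is 1 rat, so p-values measure the spread between animals.

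The miRNA libraries held 213839 to 1286613 reads with a median of 628271, and the values are normalised read counts in which 1 read was worth 0.47 to 2.53. The sperm label was checked against germ cell miRNAs, of which 5 of 6 listed were measured, and miR-34c-5p, abundant in late germ cells, made up 24.6% of the table on average. None of the 7 sperm mRNAs listed was measured in the table of Ensembl transcripts. Of the 5 epididymal epithelium mRNAs listed, 1 was measured there, Lcn5, at normalised values of 38.5 to 157.3. The library of 0.8 ppm replicate 7 stood apart for miR-143-3p and miR-145-5p, and results that rest on it are given with and without it. In bulk samples fewer cells of a type and less RNA per cell cannot be told apart.

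miR-143-3p was the only abundant member. With a mean normalised count of 16781 it ranked 11 of 425 rows, and it ranked between 2 and 19 in single libraries. It supplied 388301 recovered reads over the 23 rats, against 1158 for miR-145-5p, 485 for miR-1-3p, 434 for miR-145-3p and 387 for miR-206-3p, and it held 98.8% to 99.7% of the members' summed count in each library. A summed level of these miRNAs is therefore almost entirely a level of miR-143-3p. The other members ranked 146 (miR-145-5p, mean 48.6), 184 (miR-1-3p, 18.8), 190 (miR-145-3p, 17.2) and 201 (miR-206-3p, 14.7). Across rats miR-1-3p, miR-145-3p and miR-206-3p overlapped throughout, and the order of these 3 is not separated by their spread.

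In air, miR-143-3p ran from 9688 to 18627 with a median of 10249 (12214 ± 3618, SD, n = 7). The 5 lower air rats sat at 10829 or below and the other 2 at 16121 and 18627. At 0.4 ppm it ran from 9545 to 30483 with a median of 15123 (16892 ± 6331, n = 8). Of the 8 rats 7 were above the air median, yet the lowest value of all 23 rats was also at 0.4 ppm and only 2 rats exceeded the highest air value. At 0.8 ppm it ran from 9717 to 76738 with a median of 12936 (20667 ± 22760, n = 8). Replicate 7 alone exceeded the highest air value, and without it the group averaged 12656 ± 2347 (n = 7), close to the level in air. The 3 groups overlapped.

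As a share of all miRNA counts, miR-143-3p was 1.94% ± 0.523 in air, 2.84% ± 0.704 at 0.4 ppm and 3.22% ± 3.27 at 0.8 ppm. In 0.8 ppm replicate 7 it was 11.3% (95% Wilson interval 11.2% to 11.3%, which covers counting error only), and without that rat the 0.8 ppm share was 2.08% ± 0.478. Counting noise is small beside these differences, because each library held 4055 to 54781 miR-143-3p reads and the SD between rats was 33.1 to 154.8 times the counting SD. The spread of miR-143-3p is thus between libraries, not between reads.

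The passenger arm miR-143-5p was nearly absent, with 9 reads in all. Air replicates 1 and 7 and 0.8 ppm replicate 8 had 1 read each, and 0.8 ppm replicates 6 and 7 had 3 each. No read was found in the 8 libraries of 0.4 ppm, which allows a share of up to 0.000233% in the deepest and 0.00119% in the shallowest of them. A difference between groups in this arm was not detectable at this depth.

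miR-145-5p, the guide arm of miR-145, was scarce beside miR-143-3p. In air it ran from 18.6 to 45.5 with a median of 32.7 (33.5 ± 9.18, n = 7). At 0.4 ppm it ran from 17.4 to 55.7 with a median of 46.9 (42.3 ± 13.4, n = 8), and 5 rats were just above the highest air value while 1 was below the lowest. At 0.8 ppm it ran from 29.9 to 238.1 with a median of 39.7 (68.1 ± 69.8, n = 8). A total of 3 rats exceeded the highest air value, at 57.7, 67.1 and 238.1, and without replicate 7 the group averaged 43.8 ± 13.4 (n = 7). The groups overlapped.

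miR-145-3p, the other arm of the same hairpin, ran from 7.42 to 24.8 in air with a median of 11.6 (14.3 ± 6.77, n = 7). At 0.4 ppm it ran from 11.2 to 31.1 with a median of 18.3 (19.2 ± 5.93, n = 8), and at 0.8 ppm from 10.2 to 28.0 with a median of 17.3 (17.7 ± 4.98, n = 8). In each ozone group 7 of 8 rats were above the air median, and 1 rat in each ozone group exceeded the highest air value. The 5p arm exceeded the 3p arm in 21 of 23 rats, with a median ratio of 2.43 and a range of 0.80 to 8.50. The arms were equal in air replicate 6, at 11 reads each, and the 3p arm was ahead in 0.4 ppm replicate 3.

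Although the 2 hairpins derive from 1 transcript, miR-143-3p exceeded miR-145-5p by a median of 325-fold, from 144.8-fold in 0.8 ppm replicate 5 to 1197-fold in 0.4 ppm replicate 3. Air replicate 6 had the next highest ratio, 999.8. These ratios compare read counts of different sequences, which small RNA ligation and mapping can recover unequally, so they are not ratios of molecules.

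miR-1-3p ran from 8.08 to 25.2 in air with a median of 15.0 (16.4 ± 6.92, n = 7). At 0.4 ppm it ran from 7.77 to 45.7 with a median of 18.9 (22.2 ± 12.1, n = 8), and 2 rats, at 34.2 and 45.7, exceeded the highest air value. At 0.8 ppm it ran from 11.7 to 27.4 with a median of 16.3 (17.6 ± 4.93, n = 8), with 1 rat above the highest air value. The groups overlapped.

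miR-206-3p, which is enriched in skeletal muscle, ran from 8.08 to 40.1 in air with a median of 10.3 (14.5 ± 11.5, n = 7), and air replicate 2 alone, at 40.1 and 59 reads, exceeded 13.8. At 0.4 ppm it ran from 11.3 to 20.2 with a median of 16.5 (15.6 ± 3.21, n = 8). All 8 rats of 0.4 ppm were above the air median and none above the highest air value. At 0.8 ppm it ran from 4.85 to 22.7 with a median of 14.5 (14.1 ± 6.38, n = 8), and 2 rats were below the lowest air value.

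These 4 scarce members rest on few reads. miR-1-3p, miR-145-3p and miR-206-3p had 4 to 59 reads per library and miR-145-5p 11 to 170. Their SD within a group was 0.717 to 3.06 times the SD that counting alone gives, except for miR-145-5p at 0.8 ppm, where it was 8.28 times. At the lower end, for miR-206-3p at 0.4 ppm, the rats differed no more than counting noise.

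miR-1b, named like miR-1-3p but 1 base apart, was the more abundant row in every library, with 2369 reads against 485 and a median ratio of 4.0 (range 2.29 to 24.5). It ran from 45.9 to 108.2 in air, from 38.9 to 145.2 at 0.4 ppm and from 38.3 to 378.2 at 0.8 ppm. Its log2 fold change against air was 0.07 ± 0.33 (SE) at 0.4 ppm and 0.47 ± 0.33 at 0.8 ppm, or 0.19 ± 0.28 without 0.8 ppm replicate 7, and none passed in limma (adjusted p = 0.962, 0.993 and 0.974).

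**Figure D1:**
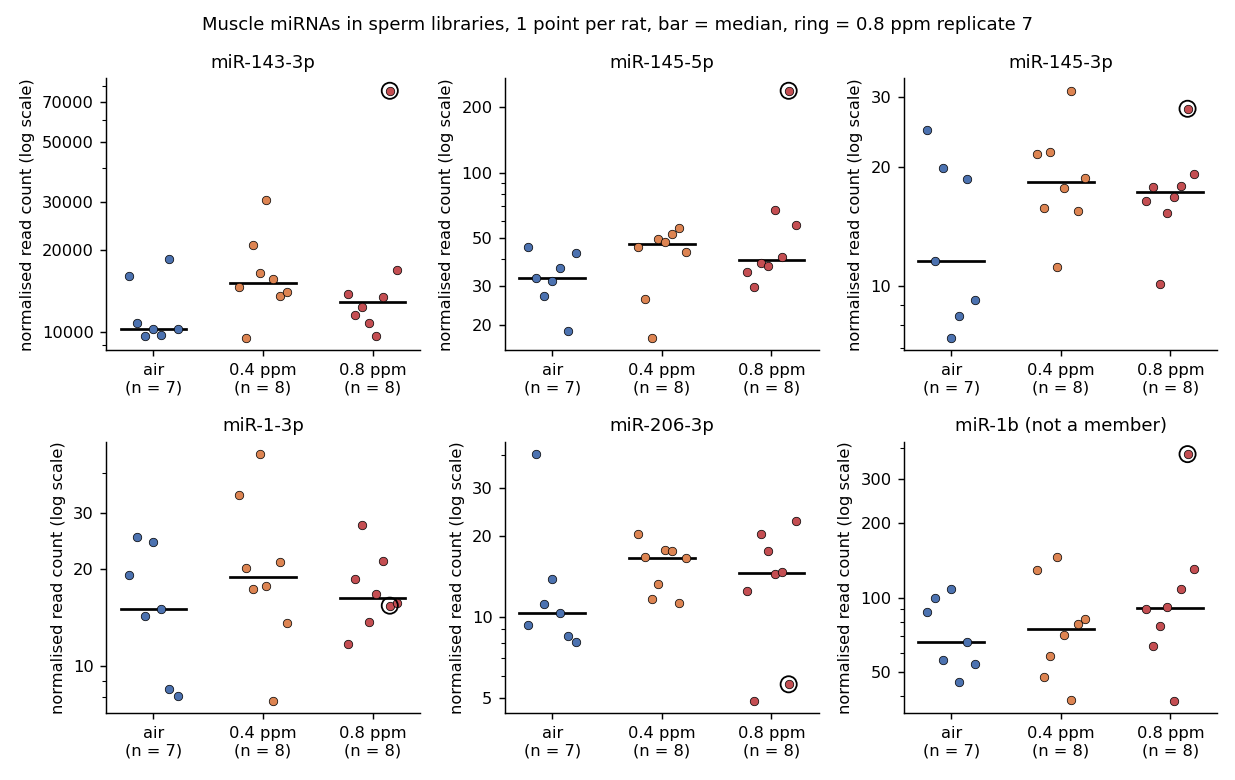
Normalised read counts of the 5 members and of miR-1b on log axes, with 1 point per rat, air (n = 7), 0.4 ppm (n = 8) and 0.8 ppm (n = 8) along the horizontal axis and a bar at each group's median. The ringed point is 0.8 ppm replicate 7, which is the highest of 23 rats for miR-143-3p (76738), miR-145-5p (238.1) and miR-1b (378.2) and lies inside the range of its group for miR-1-3p and miR-206-3p.

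No member passed the test for a change with ozone at an adjusted p under 0.05. limma, fitted over the 407 miRNAs above 0 in at least 8 rats with all 3 groups in 1 model, called 0.0% of miRNAs at 0.4 ppm against air, 0.0% at 0.8 ppm against air, 0.0% at 0.8 ppm against 0.4 ppm and 0.0% in the linear trend with ppm. Unadjusted p-values under 0.05 numbered 22 (5.41% of miRNAs), 9 (2.21%), 15 (3.69%) and 9 (2.21%). The members supplied 0, 1, 0 and 1 of these, each time miR-145-5p. On the recovered reads edgeR also called 0 miRNAs in each comparison (26, 15, 18 and 15 at an unadjusted p under 0.05), as did DESeq2 (31, 18, 25 and 20). No miRNA separated the groups completely in any pairwise comparison (0.0% of miRNAs, and 0 of 5 members).

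At 0.4 ppm against air all 5 members had a positive log2 fold change on the log2(value + 1) scale, against 48.2% of all miRNAs. The members' median was 0.36 against -0.02 over all miRNAs. miR-143-3p and both arms of miR-145 derive from 1 transcript, so the 5 signs are not independent. In edgeR and DESeq2 miR-206-3p was at only 0.029 and 0.056. miR-143-3p was at 0.44 ± 0.30 (SE, 95% interval -0.18 to 1.06, limma adjusted p = 0.812). miR-145-3p had 0.47 ± 0.28 (-0.09 to 1.03, adjusted p = 0.802) and miR-145-5p 0.29 ± 0.33 (-0.37 to 0.95, adjusted p = 0.919). miR-1-3p had 0.36 ± 0.31 (-0.26 to 0.99, adjusted p = 0.881) and miR-206-3p 0.29 ± 0.33 (-0.37 to 0.96, adjusted p = 0.919). Each interval includes 0 and reaches to 0.95 or above. In the fit without 0.8 ppm replicate 7, which contributes to the shared spread, the miR-143-3p value of 0.44 had an SE of 0.20 (interval 0.03 to 0.84) and an unadjusted p of 0.0346, and it did not pass after adjustment (adjusted p = 0.636). An exact permutation of the mean shares gave a log2 ratio of 0.55 for miR-143-3p with an unadjusted p of 0.0159 and an adjusted p of 0.678. Its unadjusted p was also under 0.05 in DESeq2 (0.0259) and in limma with quantile normalization (0.0474) or on these groups alone (0.0493). DESeq2 replaced the miR-143-3p count of 0.8 ppm replicate 7, and the fit on these groups alone held no 0.8 ppm rat. Neither is therefore separate from the fit without that rat. The unadjusted p of miR-143-3p was 0.189 in the exact rank-sum test, 0.210 in edgeR and 0.282 in limma with depth as covariate. Over the 13 alternatives its adjusted p ran from 0.499 to 0.985.

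The germ cell miRNAs had values of the opposite sign in this comparison. The summed germ cell list had a median of 199908 at 0.4 ppm (range 144827 to 267695) against 270932 in air (206201 to 303993), all 5 measured members had negative values with a median log2 fold change of -0.40, and 0 of 5 passed. The epithelial miR-200 list was positive in 5 of 5, with a median of 0.57 and sums of 7655 to 15682 at 0.4 ppm against 4208 to 9627 in air, and 0 of 5 passed. The part of either list in the values of the muscle miRNAs was not tested.

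At 0.8 ppm against air all 5 members were again positive, against 51.1% of all miRNAs, with a median of 0.37 against 0.01. For miR-206-3p, at 0.033, the sign turned in edgeR, DESeq2 and with library weights and in 7 of the 23 fits that left out 1 rat. Of those 23, the fits without 1 of the 8 rats of 0.4 ppm could not move this value. The mean count of miR-206-3p was lower at 0.8 ppm than in air (14.1 against 14.5). This comparison shares its air rats with the one at 0.4 ppm, so the signs are not independent of those above. miR-145-5p was at 0.68 ± 0.33 (SE, interval 0.02 to 1.34), a 1.6-fold difference with an unadjusted limma p of 0.0443 and an adjusted p of 0.993. Without replicate 7 it was 0.37 ± 0.26 (interval -0.16 to 0.90, unadjusted p = 0.162, adjusted p = 0.959). miR-143-3p was at 0.41 ± 0.30 (interval -0.21 to 1.02, adjusted p = 0.993), and without replicate 7 at 0.08 ± 0.21 (interval -0.34 to 0.50, adjusted p = 0.974). One library thus supplied most of the miR-143-3p difference at 0.8 ppm.

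Count models treated that library differently. edgeR put miR-143-3p at 0.68 (adjusted p = 0.992) and miR-145-5p at 0.89 (unadjusted p = 0.0152, adjusted p = 0.992). DESeq2 replaced the miR-143-3p count of replicate 7, 54781 reads, by an imputed 9546, and gave 0.062 (adjusted p = 0.988). It kept the miR-145-5p count and gave 0.99 (unadjusted p = 0.00745, adjusted p = 0.784). The remaining members had limma values of 0.37 ± 0.28 (miR-145-3p), 0.16 ± 0.31 (miR-1-3p) and 0.033 ± 0.33 (miR-206-3p), each with an adjusted p of 0.993.

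At 0.8 ppm against 0.4 ppm 1 of 5 members had a positive log2 fold change, against 53.1% of all miRNAs. The sign for miR-143-3p depends on the scale, since its mean count and share were higher at 0.8 ppm and its mean log2 value lower, and edgeR gave 0.24. miR-145-5p had a log2 fold change of 0.39 ± 0.31 (limma adjusted p = 0.795), miR-206-3p -0.26 ± 0.32, miR-1-3p -0.20 ± 0.30, miR-145-3p -0.10 ± 0.27 and miR-143-3p -0.033 ± 0.29 (adjusted p from 0.877 to 0.997). Without 0.8 ppm replicate 7 miR-143-3p was at -0.36 ± 0.20 (interval -0.76 to 0.04, adjusted p = 0.416) and miR-145-5p at 0.08 ± 0.25 (adjusted p = 0.919).

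The linear trend was positive for 5 of 5 members, against 51.6% of all miRNAs. For miR-206-3p it was 0.025 ± 0.41, and its sign turned under 4 of 10 alternatives and in 8 of the 23 fits that left out 1 rat. The slope of miR-145-5p was 0.85 ± 0.40 log2 units per ppm in limma (interval 0.04 to 1.67, unadjusted p = 0.0407, adjusted p = 0.994). Leaving out 0.8 ppm replicate 7 gave 0.47 ± 0.32 (adjusted p = 0.973). The slope of miR-143-3p was 0.49 ± 0.37 (adjusted p = 0.994), or 0.10 ± 0.28 without that rat. With that rat left out the mean normalised count of miR-143-3p was highest at the middle dose.

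**Figure D2:**
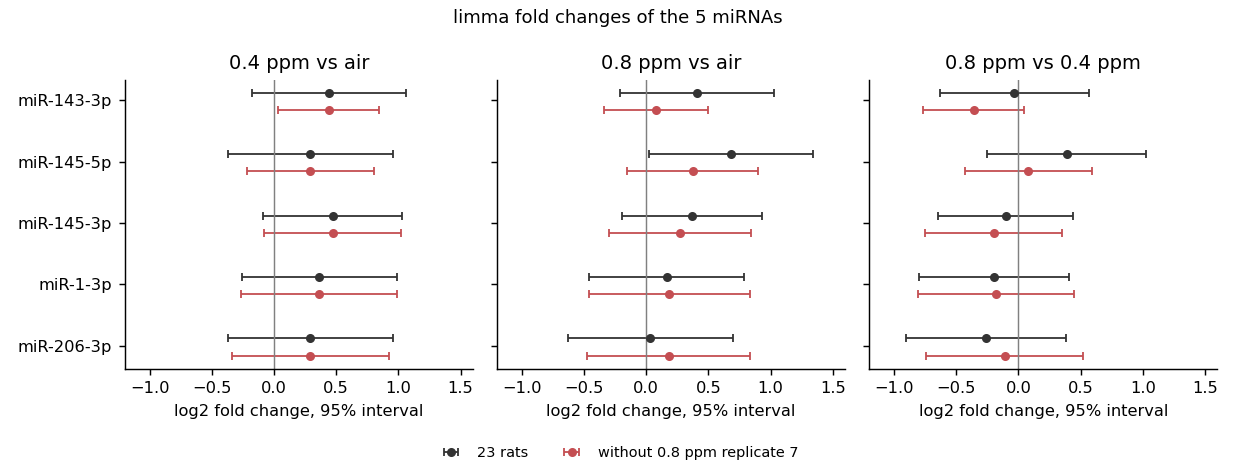
limma log2 fold changes of the 5 members with 95% intervals for each pair of groups, from all 23 rats (black) and without 0.8 ppm replicate 7 (red), with a line at 0. Leaving the rat out moves miR-143-3p at 0.8 ppm against air from 0.41 to 0.08 and miR-145-5p from 0.68 to 0.37, and leaves the values at 0.4 ppm against air in place with narrower intervals for these miRNAs.

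The library of 0.8 ppm replicate 7 was examined as a whole. It held 486748 miRNA reads, within the range of the others. Among the 235 miRNAs with a mean of at least 10, miR-145-5p and miR-143-3p stood highest over the median of the other 22 rats, by 2.56 and 2.50 units of log2(value + 1). As ratios of the normalised counts themselves these were 6.0-fold and 5.67-fold. miR-196b-5p followed at 2.43 and miR-1b at 2.27, where it was 378.2 with 270 reads against a median of 77.7. The passenger arm miR-143-5p, with 3 reads, also had its highest normalised value there. miR-145-3p was second highest of 23 at 28.0, only 1.62-fold over the median of the others.

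miR-1-3p, miR-206-3p and miR-499-5p were not high in this library. There miR-1-3p was 15.4, rank 15 of 23, and miR-206-3p was 5.60, rank 22. miR-499-5p, a miRNA encoded within the slow myosin gene Myh7b, was at its lowest of all 23 rats, 18.2 against a median of 67.3. The ratio of miR-1b to miR-1-3p, 24.5 in this rat, was the highest of all and the only one above 8.28.

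Lists of miRNAs known from other cell types were read in the same library. The sum of the 2 measured other muscle miRNAs, miR-1b and miR-499-5p, was the highest of 23 at 396.4, or 2.75-fold over the median of the others, although miR-499-5p was at its lowest. The fibroblast and endothelium list (7 of 7 measured) had its highest sum there, 2292 or 1.82-fold over the median of the others, of which miR-199a-3p supplied 1993. In that list miR-199a-3p and miR-199a-5p (57.4) were highest of 23, miR-126a-3p and miR-10b-5p each ranked 3 and miR-126a-5p ranked 5. By contrast miR-152-3p ranked 22, at 26.6 against a median of 41.0, and miR-214-3p, with a mean of only 0.333 over all rats, was 0. The germ cell list (5 of 6 measured) had its second lowest sum, 164629 or 0.619-fold, with miR-34c-5p at 96494. The vascular wall list (11 of 11 measured) was at 0.853-fold, a sum mostly of miR-26a-5p and miR-22-3p. Of that list miR-23b-3p ranked 1 and miR-221-3p and miR-27b-3p each ranked 2 of 23. All others stood lower, with miR-29c-3p at rank 12, miR-24-3p and miR-26a-5p at 17, miR-222-3p at 19 and miR-21-5p at 21. Ranks of miR-29a-3p and miR-29b-3p were 22, and miR-22-3p was lowest at 23. The leukocyte list (6 of 6) was at 1.20-fold, the epithelial list (5 of 5) at 1.01-fold and the erythroid list (3 of 3) at 0.997-fold. Over the groups, the fibroblast and endothelium sums were 894.0 to 1456 in air, 747.2 to 1820 at 0.4 ppm and 1022 to 2292 at 0.8 ppm. Their part in the miR-143-3p and miR-145-5p values was not tested. The library was the highest of 23 for 33 of the 407 miRNAs and the lowest for 17, fewer than in 0.4 ppm replicate 5 (67 and 40) or 0.8 ppm replicate 5 (46 and 26). Those libraries were shallower, with 288857 and 213839 miRNA reads against 486748, so the counts are not compared at equal depth.

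**Figure D3:**
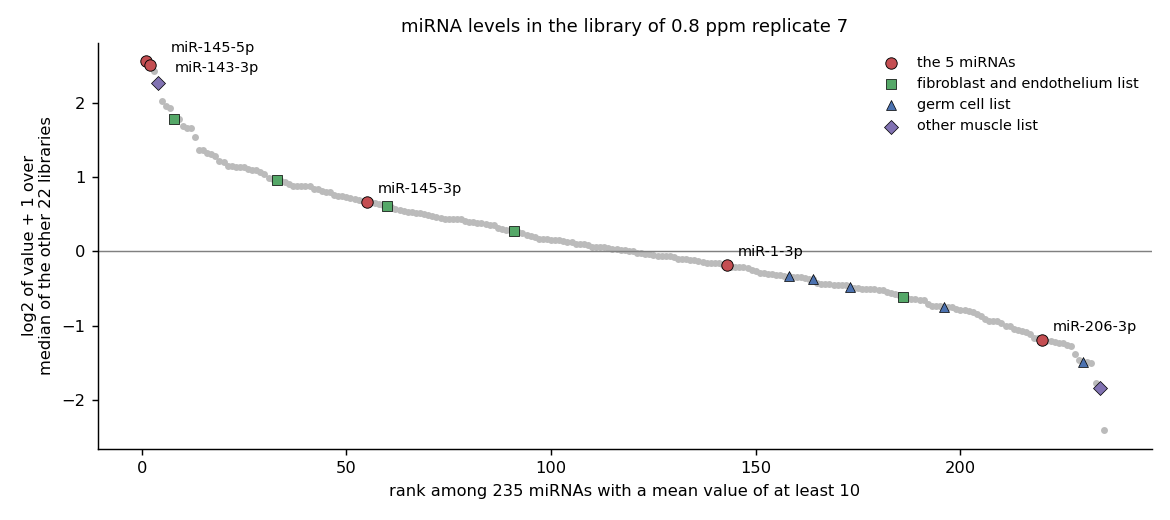
Log2 ratio of each miRNA's value plus 1 in 0.8 ppm replicate 7 to the median of the other 22 rats, for the 235 miRNAs with a mean of at least 10, in order of the ratio. miR-145-5p and miR-143-3p (red circles) hold ranks 1 and 2 and miR-1b (purple diamond, left) rank 4, while miR-206-3p, the germ cell list (blue triangles) and miR-499-5p (purple diamond, right) lie below 0.

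Whether the members followed each other from rat to rat was asked with Pearson and Spearman correlations of log2(value + 1) over the 23 rats, for 30 relations: each pair of members, and each member against read depth, miR-34c-5p, the summed miR-200 family and 4 summed leukocyte miRNAs. None passed after adjustment (two-sided permutation tests). miR-143-3p and miR-145-5p had r = 0.60 (permutation p = 0.021, adjusted p = 0.125) and rho = 0.34 (p = 0.108, adjusted p = 0.534). Without 0.8 ppm replicate 7 the r was 0.016, and without the 2 rats farthest from the median of miR-143-3p it was -0.10, so the relation rested on that rat.

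miR-143-3p and miR-145-3p had r = 0.53 (permutation p = 0.00795, adjusted p = 0.119) and rho = 0.56 (p = 0.00603, adjusted p = 0.181), and r = 0.54 without the 2 farthest rats. Within groups the r was 0.66 in air, 0.12 at 0.4 ppm and 0.74 at 0.8 ppm. The 2 arms of miR-145 had r = 0.27 (permutation p = 0.210, adjusted p = 0.573) and rho = 0.21 (adjusted p = 0.745), and miR-1-3p and miR-206-3p r = 0.31 (permutation p = 0.153, adjusted p = 0.573) and rho = 0.33 (adjusted p = 0.534). With so few reads for the scarce arms, a weak relation between them would not be detectable at this depth. miR-143-3p and miR-34c-5p had r = -0.55 (permutation p = 0.00412, adjusted p = 0.119) and rho = -0.44 (p = 0.0357, adjusted p = 0.214), with -0.47 without the 2 farthest rats. Within groups this r was -0.70 in air, -0.24 at 0.4 ppm and -0.62 at 0.8 ppm.

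**Figure D4:**
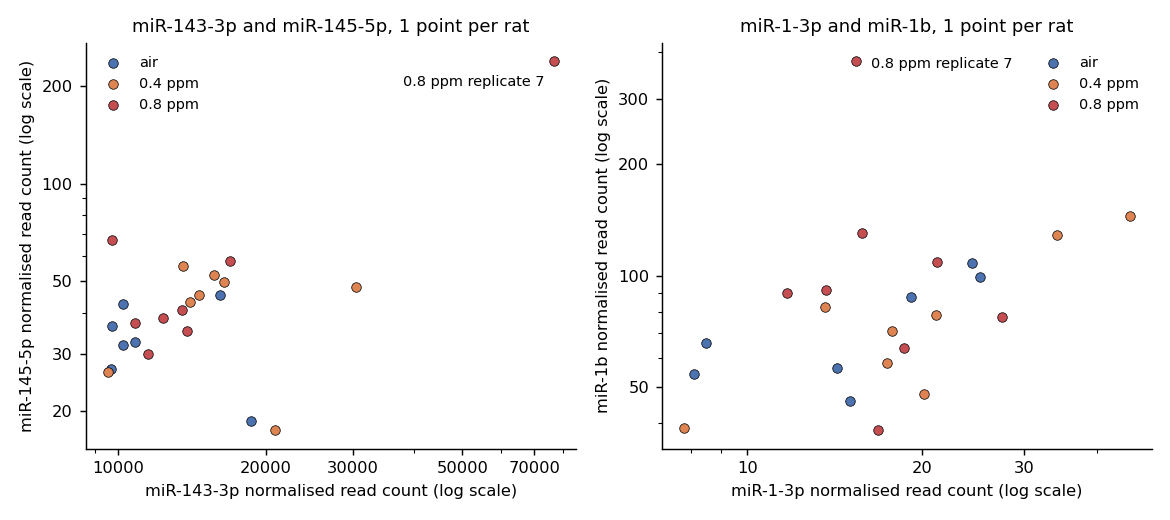
Normalised read counts of miR-145-5p against miR-143-3p (left) and of miR-1b against miR-1-3p (right) on log axes, with 1 point per rat coloured by group. On the left 0.8 ppm replicate 7 lies far from the other 22 rats, among which no slope is seen (r = 0.016). On the right the same rat has the highest miR-1b at a middling miR-1-3p.

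The miRNAs most like each member were sought among the 230 miRNAs with a mean of at least 10 that are not members, by the correlation of log2 values over the 23 rats with group means subtracted. These correlations share library scaling and are descriptions. miR-143-3p was most like let-7f-5p (0.85), let-7e-5p (0.80) and miR-184 (0.79). Without 0.8 ppm replicate 7 it was most like miR-146b-5p (0.82), miR-151-5p (0.79) and miR-184 (0.78), so miR-184 alone was among the 3 nearest both times. miR-145-5p was most like miR-221-3p (0.73), miR-196b-5p (0.70) and miR-199a-3p (0.69), and without that rat miR-324-5p (0.72), miR-221-3p (0.69) and miR-152-3p (0.55). miR-1-3p was most like miR-107-3p (0.59), miR-30a-3p (0.57) and miR-409b (0.56), and without that rat its nearest was miR-1b (0.60).

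The other listed muscle genes gave little more. Of 17 other muscle miRNA names, 2 were measured, miR-1b and miR-499-5p, and 0 of 2 passed in any comparison. miR-499-5p ran from 28.8 to 89.5 in air, from 20.3 to 86.0 at 0.4 ppm and from 18.2 to 123.3 at 0.8 ppm, with log2 fold changes against air of 0.0011 ± 0.32 and 0.40 ± 0.32 (limma adjusted p = 0.998 and 0.993). Without 0.8 ppm replicate 7 the value at 0.8 ppm was 0.67 ± 0.27 (unadjusted p = 0.018, adjusted p = 0.762). Of the 11 vascular wall miRNAs, which are also expressed in many other tissues, 6 had positive and 5 negative fold changes against air at each dose, and 0 of 11 passed.

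In the separately normalised table of Ensembl transcripts, 1 of 14 smooth muscle mRNAs was measured, Synpo2, which encodes an actin-binding protein of the Z-disc. Its normalised values ran from 0.0171 to 11.6 in air, from 0.00472 to 7.54 at 0.4 ppm and from 0.0242 to 8.68 at 0.8 ppm, and it did not pass in any comparison. Of the 5 skeletal and cardiac muscle mRNAs listed, Ttn, the giant sarcomere protein titin, was measured, and of 7 stromal and endothelial mRNAs, Col1a1, a collagen of connective tissue. None of the 3 miR-143 and miR-145 targets Klf4, Klf5 and Elk1 was measured.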

How the data were processed

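Small RNA of cauda sperm was extracted by the mirVana procedure, made into CleanTag libraries and read on an Illumina NextSeq sequencer, per the labels' protocols. Tools listed by the submitters' processing notes are Bowtie 1.0.0 and Partek, with rn6 as the build. For read assignment and length filters nothing is stated there. The deposited miRNA values are a signal: read counts that the authors divided by a factor per library. Of 266 to 318 low values checked per library, 100% were whole multiples of 1 read within 0.1 of a read, so whole reads were recovered. The Ensembl table is a separately scaled signal of unknown depth.

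Members, lists and tests were chosen with earlier results of these data known. miRNAs above 0 in at least 8 of 23 rats were tested with limma 3.58.1 in R 4.3.3 on log2(value + 1), with mean-variance trend, robust moderation and Benjamini-Hochberg adjustment at 0.05, two-sided. Adding 1 shrinks fold changes of low miRNAs. Such values are still not lower bounds, because edgeR and DESeq2 gave smaller values for some low members and larger ones for others. DESeq2 1.42.0 and edgeR 4.0.16 run on recovered reads, other pseudocounts (0.5 and 4), filters, scalings, library weights, exact rank-sum and permutation tests, depth as covariate and leaving out each rat were alternatives. Correlation p-values came from 100000 permutations. Named miRNAs were every row matching the member rule, the 3 nearest to each of miR-1-3p, miR-143-3p and miR-145-5p, and members of the lists. The measured miRNAs of the other muscle, vascular wall, and fibroblast and endothelium lists are all named. The miRNAs at the top of the ranking of 0.8 ppm replicate 7 and those called with library weights were named after their values were seen. Replicate numbers follow accession order and pair no samples. Sequences and gene order are from RefSeq GRCr8; as the notes name another build, no coordinates are given. Methods were tested on simulated data.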

Additional observations from a re-analysis of the deposited data

Results flagged for a closer look

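Within-group gaps were examined for the 5 members in 3 groups, 15 groups of values, of which chance alone sets apart about 1 in 20. In 0.8 ppm replicate 7 miR-143-3p was 76738, the next rat of the group was at 16860, and the gap was 0.893 of the group's range against a critical value of 0.526. In the same rat miR-145-5p was 238.1, the next rat was at 67.1, and the gap was 0.822 of the range. In air replicate 2 miR-206-3p was 40.1, the next air rat was at 13.8, and the gap was 0.822 of the range against a critical value of 0.568. Without air replicate 2 the log2 fold change of miR-206-3p against air was 0.56 at 0.4 ppm and 0.30 at 0.8 ppm, and neither passed.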

How the results depend on the processing

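No member was called in any comparison under any alternative run. Of 245 member fold changes under the alternatives 234 kept their sign, and of 460 with 1 rat left out 438 did. Part of these could not change. The other filters, the rank-sum test and the fits of the compared groups alone repeat the main fold changes. Leaving out a rat of the third group leaves a pairwise fold change as it was. Library weights called 2 miRNAs at 0.4 ppm against air (miR-3590-5p and miR-429), 3 at 0.8 ppm against air (miR-17-2-3p, miR-471-5p and miR-741-3p) and 3 in the trend (the same names as at 0.8 ppm). Signs changed for miR-206-3p at 0.8 ppm against air (-0.0685 with library weights, -0.0862 in edgeR, -0.0641 in DESeq2) and in its trend (-0.00686 with quantile normalization, -0.0289 with library weights, -0.11 in edgeR, -0.0848 in DESeq2). At 0.8 against 0.4 ppm signs changed for miR-145-5p (-0.0672 with library weights) and miR-143-3p (0.24 in edgeR, 0.19 by shares, 0.0463 with depth as covariate). The cause was not tested. With each rat left out, miR-206-3p ran from -0.082 to 0.30 at 0.8 ppm against air (highest without air replicate 2, lowest without 0.8 ppm replicate 8) and from -0.105 to 0.33 in the trend. At 0.8 against 0.4 ppm miR-143-3p ran from -0.36 (without 0.8 ppm replicate 7) to 0.10 (without 0.4 ppm replicate 5), and miR-145-3p from -0.197 to 0.00257. At 0.8 ppm against air, miR-143-3p ran from 0.078 to 0.52 and miR-145-5p from 0.37 to 0.79, both lowest without 0.8 ppm replicate 7. Of the 30 relations 0 passed on log2 values, with group means subtracted, without the 2 farthest rats or by rho, and 2 passed on shares of the table. No paired analysis was possible because the groups are separate rats and nothing in the labels pairs them. Depth limits the 4 scarce members, with 4 to 170 reads per library, and the limma intervals of the 5 members span 0 except for miR-145-5p at 0.8 ppm against air and in the trend.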

Other observations

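On log2 shares of the miRNA table, 2 of the 30 relations passed. The share of miR-143-3p was lower where that of miR-34c-5p was higher (r = -0.81, permutation adjusted p = 6e-04, rho = -0.73, permutation adjusted p = 0.0057, n = 23), with r = -0.68 without the 2 farthest rats and -0.66, -0.72 and -0.91 within air, 0.4 ppm and 0.8 ppm. Both are shares of 1 total of which miR-34c-5p holds 24.6%, so part of a negative relation is built in, and on the deposited scale it did not pass. The summed miR-200 family and miR-145-3p had r = 0.61 (permutation adjusted p = 0.0291) and rho = 0.56 (adjusted p = 0.0787), and r = 0.48 without the 2 farthest rats (adjusted p = 0.175), where it no longer passed. miR-143-3p and miR-145-3p had r = 0.51 on this scale (permutation adjusted p = 0.107), and without the 2 farthest rats r = 0.63, which passed (permutation adjusted p = 0.0405).

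In 0.8 ppm replicate 7 the miRNAs next after miR-145-5p, miR-143-3p, miR-196b-5p and miR-1b were miR-3068-5p, miR-184, miR-122-5p and miR-199a-5p, at 2.02, 1.96, 1.93 and 1.78 log2 units over the median of the other 22 rats. miR-10a-5p, an abundant miRNA with a mean of 23802, was at 53831 against 17102.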
